A study of Mus musculus with 32 samples.

Results

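The 10 melanomas richest in epidermal keratin RNA were compared with the 10 poorest, out of 32 primary mouse melanomas profiled by sequencing of polyadenylated RNA. Each tumour was scored as the mean of log2(TPM + 1) over Krt5, Krt14 and Dsg3, where TPM is a transcript level scaled for gene length and library total. The 10 highest scores are called skin-rich and the 10 lowest skin-poor, and the other 12 tumours lay in between. The tumours were thus chosen by the levels of Krt5, Krt14 and Dsg3, whose values are a description and were not tested. The 2 classes were set against each other on raw counts over all genes, to ask what else in a bulk melanoma library moved with its epidermal RNA.

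All mice carried an NRAS oncogene (NRAS Q61K) driven in melanocytes by the tyrosinase promoter, were missing Cdkn2a, a tumour suppressor, on 1 chromosome, had both copies of Cdh1, the gene of E-cadherin, flanked by loxP sites, and were on the C57BL/6J background. Ecad tumours, labelled Tyr::NrasQ61K;Cdkn2a-/+;°/°;Cdh1F/F, kept Cdh1 intact. ΔEcad tumours, labelled Tyr::NrasQ61K;Cdkn2a-/+;Tyr::NRAS/°;Cdh1F/F, came in the methods of the study from mice that also carried a Cre recombinase under the tyrosinase promoter, so the deletion of Cdh1 was directed to melanocytes. There were 8 tumours for each genotype and sex, with no treatment. The age of the mice is not given in the sources used here.

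The epidermis renews itself from a basal layer of keratinocytes that make Krt5 and Krt14 and sit on laminin through hemidesmosomes. Cells that leave this layer switch to Krt1 and Krt10 in the spinous layer and then build the cornified envelope from loricrin, filaggrin and small proline-rich proteins. Desmosomes, which Dsg3 helps to form in the lower layers, hold the cells together. Hair follicles and sebaceous glands grow from the same sheet, and melanocytes of the skin live among its basal cells and in the follicles.

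The DNA just upstream of 6 of the genes is shown because they stand for the layers the comparison turned on: Krt5 for the basal layer and the score, Krt10 for the spinous layer, Lor and Sprr1a for the cornified envelope, Krt71 for the hair root sheath, and Ergic1 for the genes lower in skin-rich tumours. Each line gives the 100 bases before the transcription start, 5′ to 3′ on the gene's strand, from RefSeq on GRCm38.p6. The regions were chr15:101712906-101713005 (Krt5, minus strand), chr11:99389365-99389464 (Krt10, minus), chr3:92083143-92083242 (Lor, minus), chr3:92485882-92485981 (Sprr1a, minus), chr15:101743098-101743197 (Krt71, minus) and chr17:26561412-26561511 (Ergic1, plus). Capitals mark a TATA box (letters TATAAA) within 50 bases of the start or an AP-1 motif (letters TGANTCA).
Krt5: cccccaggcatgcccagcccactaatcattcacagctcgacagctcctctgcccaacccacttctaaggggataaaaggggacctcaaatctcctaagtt
Krt10: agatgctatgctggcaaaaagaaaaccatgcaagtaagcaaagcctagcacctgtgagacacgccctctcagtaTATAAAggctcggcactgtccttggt
Lor: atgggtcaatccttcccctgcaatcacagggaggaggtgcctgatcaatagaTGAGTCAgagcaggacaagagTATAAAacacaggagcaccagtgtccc
Sprr1a: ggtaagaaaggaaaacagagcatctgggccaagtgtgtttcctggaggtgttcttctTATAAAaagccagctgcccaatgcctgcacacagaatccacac
Krt71: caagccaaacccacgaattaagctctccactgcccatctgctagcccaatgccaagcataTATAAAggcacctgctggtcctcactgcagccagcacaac
Ergic1: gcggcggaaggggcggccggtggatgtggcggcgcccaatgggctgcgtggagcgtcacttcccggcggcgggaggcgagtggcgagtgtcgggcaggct

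The TATA box began 26 bases before the start in Krt10, 27 in Lor, 40 in Krt71 and 43 in Sprr1a, and Lor also had an AP-1 motif 48 bases before the start. The letters TATAAA were in the 50 bases before the start in 5% of the 1080 promoter windows of genes called higher in skin-rich tumours (54 windows), in 2.11% of the 284 windows of genes called lower, in 1.97% of the windows of genes tested and not called, and in 3.5% of all 32851 windows. AP-1 was searched over 250 bases and found in 11.3% of the windows of genes called higher, 2.11% of those called lower, 4.7% of those not called and 6.75% of all. The letters GCCNNNGGC of AP-2, a factor family of the epidermis, were in 17.9%, 21.8%, 20% and 13.7% in the same order. All 3 motifs were searched on both strands, and a match in these windows is a description of the letters alone.

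Of the 32 tumours, Ecad male 6 had the highest score, at 10.32, and the skin-rich class reached down to ΔEcad female 7 at 8.42, just above Ecad male 1 at 7.76. The skin-poor class began at 0.20 in Ecad female 8, just below Ecad female 1 at 0.29, and 4 tumours scored 0. Krt5, a basal keratin, was at 1165 TPM in the lowest, 2766 TPM at the median and 6485 TPM in the highest skin-rich tumour, and at most 0.18 TPM in a skin-poor tumour. Its partner Krt14 was at 2084, 4648 and 9186 TPM, against at most 0.43 TPM. Dsg3 was at 4.44, 13.96 and 86.03 TPM, against at most 0.05 TPM. The 12 tumours in between formed a gradient, with Krt5 from 0.35 to 1080 TPM and a median of 117 TPM. Krt5 alone picked the same 20 tumours.

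**Figure D1:**
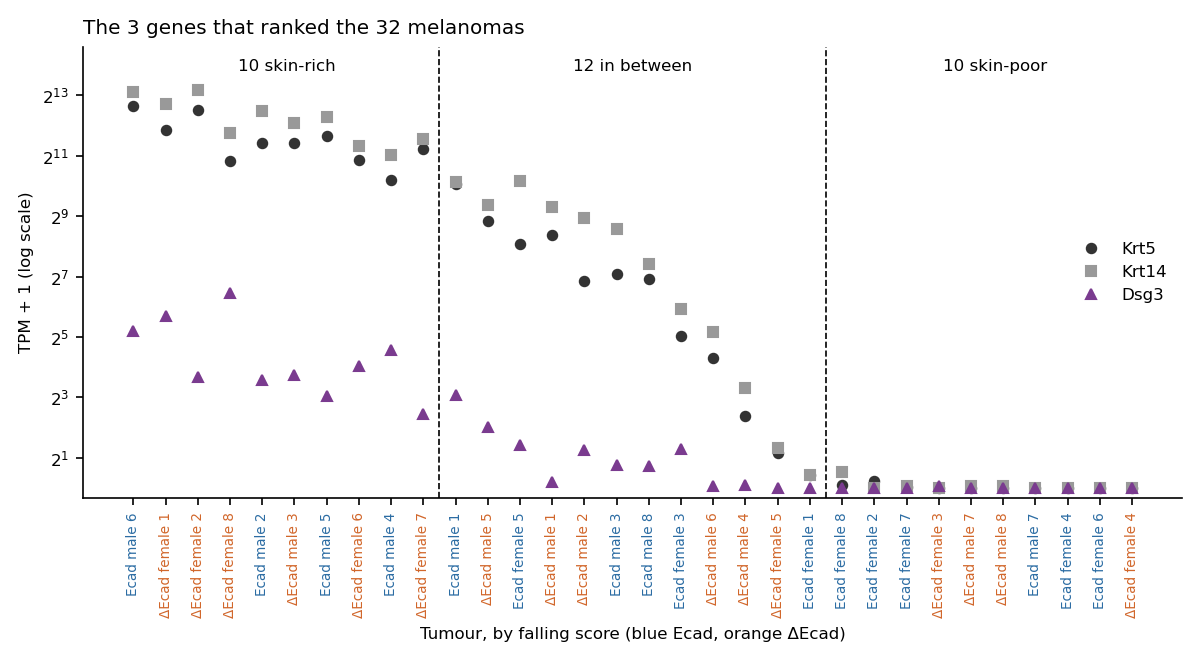
Levels of Krt5, Krt14 and Dsg3 (TPM + 1, log scale) in each of the 32 tumours, ordered by falling score, with the classes divided by dashed lines and the genotype given by the colour of the name. Krt5 runs from 6485 TPM in the first tumour to 0.35 TPM in the last before the skin-poor tumours, rising at some ranks. In skin-poor tumours it is at most 0.18 TPM.

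The skin-rich class held 0 Ecad females, 4 Ecad males, 5 ΔEcad females and 1 ΔEcad male. The skin-poor class held 5 Ecad females, 1 Ecad male, 2 ΔEcad females and 2 ΔEcad males. Ecad tumours were 4 of 10 and 6 of 10 (Fisher's exact test, two-sided p 0.656, adjusted 0.656 over 2 tests), and females 5 of 10 and 7 of 10 (Fisher's exact test, two-sided p 0.65, adjusted 0.656). Neither share passed the threshold, and the 2 labels were tangled within the classes: all 4 skin-rich Ecad tumours were male and 5 of the 6 skin-poor ones female. Total counts were 33769340 ± 2503041 in skin-rich and 35609779 ± 6783844 in skin-poor tumours (SD, n = 10 each, two-sided permutation test p 0.446) and ranged from 24036333 to 63923086 over all 32.

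Some libraries stood apart. The library labelled ΔEcad male 2, one of the 12 in between, had 6.41 TPM of Xist and 0 counts of Ddx3y, Uty, Kdm5d and Eif2s3y, against at most 0.2 TPM and at least 1459 counts in the other 15 males. ΔEcad female 1, a skin-rich tumour, had 92 counts of these genes, against at most 4 in the other females. Of the skin-poor tumours, ΔEcad male 7 had the lowest summed level of the melanocytic list, at 41.7 TPM, and ΔEcad female 3 that of the endothelial list, at 10.01 TPM. ΔEcad female 3 was also lowest for the red blood cell list, at 0 TPM, the macrophage list, at 39.48 TPM, and the B and plasma cell list, at 0.44 TPM. Counts of calls without these libraries are given with the results.

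Of 16219 genes tested with edgeR (adjusted p under 0.05 and a log2 fold change beyond 1), 1253 were higher in skin-rich tumours, 7.73% of those tested, and 311 were lower, 1.92%. In bulk tissue, more cells of a type cannot be told apart from more RNA per cell. The genes called higher moved far: their median log2 fold change was 3.11, with 344 over 5 and 78 over 10, while the genes called lower had a median of -1.34, with 64 under -2. Of the 1564 calls 80.12% were higher, and 91% of calls were with total counts alone as the scale (1375 higher and 136 lower), which moved the median of all genes from -0.08 to 0.08 on the log2 scale. Every skin-rich tumour lay above every skin-poor tumour in TPM for 409 genes (2.52%), and 407 of these were called. The filter on low counts kept a gene near 0 in all skin-poor tumours only if all 10 skin-rich tumours reached a minimum level. Such genes were bound to separate the classes, so this count is a description. Only 1 gene, Ergic1, lay below in every pair (0.00617%). Without the 3 of the libraries named above that were among the 20, 1709 genes were higher and 419 lower.

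Of the 1253 genes, 90 were in one of the epidermal, hair or gland lists. Genes that share their cells with Krt5, Krt14 and Dsg3 had to follow the choice of tumours. Their sizes and p-values between the classes thus describe the epidermal RNA and are no independent test of it. This also holds for genes near 0 in all skin-poor tumours, such as Krt1, Cnfn, Lor and Krt79, which passed the filter through the skin-rich class. The 12 tumours in between entered neither class. The filter on low counts asked for a minimum level in at least 10 of the 20 tumours, of either class, so a gene at 0 in all skin-poor tumours and in 1 skin-rich tumour was removed. Without a filter, 32136 genes were tested and 2279 were higher (7.09%), and that count is used for lists that lost many members.

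The basal layer was present in every skin-rich tumour. Of 15 listed genes, all were tested, 13 were higher and 0 lower, with a median log2 fold change of 6.51 beside -0.08 over all genes. Perp, a desmosomal membrane protein, was at 393.5, 763.1 and 2207 TPM in the lowest, median and highest skin-rich tumour and at most 0.36 TPM in skin-poor tumours (log2 fold change 12.50, SE 0.55, edgeR adjusted p 1.21e-12). Serpinb5, a serpin of epithelial cells, was at 35.98, 114.6 and 249.1 TPM, against at most 0.06 TPM. Sfn, a keratinocyte member of the 14-3-3 family, was measurable in both classes, at 4.61 to 14.35 TPM in skin-poor tumours and 234.7 to 1520 TPM in skin-rich ones (log2 fold change 6.51, SE 0.39). Krt15, a keratin of basal and bulge cells, was at 36.32, 211.7 and 1179 TPM, against at most 0.09 TPM. Trp63, the master transcription factor of the basal layer, and Col17a1, a collagen of its hemidesmosomes, had log2 fold changes of 7.68 and 10.20. The 2 members not called were Itga6, a laminin receptor subunit (0.49, edgeR adjusted p 0.337), and Dst, a linker of the hemidesmosome (-0.07).

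Genes of the layers above were present as well. All 10 tested spinous and granular genes were higher (median log2 fold change 11.34), as were 14 of 14 without a filter. Their summed level was 2151, 15010 and 46000 TPM in the lowest, median and highest skin-rich tumour and 3.42, 20.02 and 300.1 TPM in skin-poor tumours. Krt1, a keratin of the spinous layer, was at 75.91, 2042 and 7057 TPM, against at most 0.03 TPM in skin-poor tumours (log2 fold change 17.76, SE 1.10, edgeR adjusted p 2.04e-10). Krt10, its partner, was at 149.2, 2774 and 9176 TPM, against 0.09 to 7.60 TPM (10.85, SE 1.00). Krt10 overlaps the antisense gene Gm11940 and is uncertain, since the counting is not stated to use strand. Calm4, a calcium-binding protein of differentiating keratinocytes, and Lgals7, an epithelial galectin, were at 22.87 to 8210 and 349.2 to 8853 TPM in skin-rich tumours. Lgals7 reached 297.9 TPM in 1 skin-poor tumour, the highest value of this list there, and its log2 fold change was 6.36 (SE 1.33).

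The balance of the layers differed among the skin-rich tumours. The summed TPM of Krt1 and Krt10 per that of Krt5 and Krt14 had a median of 0.529, and ran from 0.0491 in ΔEcad female 8 and 0.0922 in Ecad male 4 to 1.08 in ΔEcad female 2 and 1.34 in Ecad male 2. The skin lists together, 169 genes, made up 1.31% to 10.55% of all TPM in skin-rich tumours (median 3.798%) and 0.028% to 0.0663% in skin-poor ones. ΔEcad female 2 held the highest share and ΔEcad female 8 the lowest of the skin-rich class.

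The cornified envelope followed. Of 15 tested members of this list, 14 were higher (median log2 fold change 9.88), as were 25 of 26 without a filter. Lor, the loricrin gene, was at 1.16 TPM in the lowest, 1499 TPM at the median and 5945 TPM in the highest skin-rich tumour and at most 0.87 TPM in skin-poor tumours (13.46, SE 1.25, edgeR adjusted p 7.81e-08). Cnfn, cornifelin of the envelope, was far more even, at 101.5, 256 and 562.6 TPM, against at most 0.10 TPM, and had the same adjusted p as Krt6a (12.76, SE 0.50, edgeR adjusted p 3.76e-13). Sprr1a, a small proline-rich envelope protein, was at 111.3, 526.5 and 2470 TPM, against at most 5.58 TPM. Asprv1, the protease that processes profilaggrin, reached 119 TPM in a skin-poor tumour and its classes overlapped (5.98, SE 1.29). Abca12, which loads lipid into lamellar granules, was not called (2.50, edgeR adjusted p 0.19).

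Junction genes moved with the layers. Of 12 tested desmosome genes 10 were higher (median log2 fold change 7.12). Pkp1, a plaque protein of the upper layers, was at 97.07, 212.7 and 524.8 TPM, against at most 0.15 TPM (12.66, SE 0.55), and Dsp, the plaque protein that anchors keratin, was at 78.23, 144 and 325.1 TPM, against at most 0.05 TPM (13.32, SE 0.62). Dsp overlaps Gm10129 and is uncertain. Jup, the plakoglobin that desmosomes share with adherens junctions, was at 9.45 to 136.7 TPM in skin-poor tumours as well, and its difference of 1.87 (log2, SE 0.59, edgeR adjusted p 0.0361) lost its call on leaving out any of 12 single tumours. Pkp2 (-0.65) and Dsg2 (0.74), the desmosome genes that simple epithelia and other cells also use, were not called. All 12 tested genes of tight junctions and epithelial adhesion were higher, among them Rab25, a trafficking GTPase, at 32.60 to 260.9 against at most 0.95 TPM.

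The transcription factors split. Of 15 tested, 12 were higher (median log2 fold change 6.74), including Grhl1, a regulator of desmosomal cadherins, at 17.60, 30.97 and 95.16 TPM, against at most 0.55 TPM (7.01, SE 0.43, edgeR adjusted p 2.04e-10), and Ovol1 (10.31) and Zfp750 (10.08), regulators of terminal differentiation. Gata3 was higher (6.74) and overlaps an antisense gene, so it is uncertain. Klf4, a barrier factor, was at 47.73 to 194.5 TPM in skin-rich and 20.24 to 158.1 TPM in skin-poor tumours (0.86, edgeR adjusted p 0.0647). Tfap2a, which melanocytes also make, was at 39.01 to 105.2 and 19.74 to 93.01 TPM (0.45, edgeR adjusted p 0.275), and Sox9 was not called (0.69).

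Keratins of wounded and hyperproliferative epidermis were present in every skin-rich tumour. All 4 tested members were higher, and their summed level was 1146, 4789 and 9464 TPM in the lowest, median and highest skin-rich tumour, against at most 0.21 TPM in a skin-poor one. Krt6a was at 166.4, 796.4 and 1541 TPM, against at most 0.03 TPM (15.98, SE 0.63), and Krt16, its partner, at 63.69, 1151 and 4486 TPM, against at most 0.05 TPM. Krt17 was at 135.1, 1311 and 5154 TPM, against at most 0.15 TPM. Such keratins are also made in hair follicles. Krt6a and Krt6b are near-identical neighbours and overlap other genes, so the split between them is uncertain.

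Alarmins and antimicrobial genes of keratinocytes did not move as a block, with 6 of 14 tested members higher and 1 lower (median log2 fold change 1.28). S100a14, an epithelial calcium-binding protein, was at 110.7, 210.2 and 683 TPM, against at most 0.94 TPM (9.84, SE 0.60, edgeR adjusted p 1.51e-10), and the defensin genes Defb1 (12.27) and Defb14 (9.02) were higher. S100a8 and S100a9, which neutrophils make too, reached 2137 and 6258 TPM in the skin-poor Ecad female 4 and were not called (1.18 and 0.52). Slpi, a secreted protease inhibitor, was called lower (-3.73, SE 1.18, edgeR adjusted p 0.0374), but it was at 7.16, 25.42 and 40.48 TPM in skin-rich and 0.51, 7.20 and 1307 TPM in skin-poor tumours, so the median was higher in skin-rich tumours although the fitted change was below 0. The fitted change turned to 2.02 with the label group as a covariate. It overlaps Mir7678 and is uncertain.

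Hair follicle and sebaceous genes were present too, but unevenly. Of 20 hair shaft and root sheath keratins only 2 passed the filter, Krt71 and Tchh, and both were higher, while without a filter 20 of 20 were. Krt71, an inner root sheath keratin, was at 0 TPM in the lowest, 79.23 TPM at the median and 1374 TPM in the highest skin-rich tumour, against at most 0.67 TPM (11.33, SE 1.599, edgeR adjusted p 3.09e-05). Its partners Krt25 and Krt27 were at 0 in all skin-poor tumours and reached 1281 and 1028 TPM in skin-rich ones, at least 1570-fold and 1010-fold higher over a floor of 3 counts a library. The keratin-associated proteins of the hair shaft, none of which passed the filter, summed to 0.11, 37.49 and 267.4 TPM in skin-rich tumours and to 0 in every skin-poor tumour. Without a filter 16 of 18 were called higher and 1 was not, and Krtap13 was at 0 in all tumours. The hair keratins spanned a wide range, with a summed level from 3.38 to 4484 TPM among the skin-rich tumours.

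Of 12 tested regulators of the hair follicle 9 were higher (median log2 fold change 5.53), among them Foxn1 (8.72) and Msx2 (8.58), factors of hair differentiation. Dlx3, another, was at 1.04, 9.11 and 109.9 TPM in skin-rich tumours and at most 5.74 TPM in skin-poor ones (5.21, SE 1.36, edgeR adjusted p 0.0137). Cux1 and Selenbp1, which are expressed in many tissues, were not called (-0.59 and 0.05). The sebaceous gland list had 7 of 9 tested members higher, and 12 of 14 without a filter. Krt79, a keratin of the sebaceous duct, was at 23.26, 245 and 1963 TPM, against at most 0.15 TPM (13.48, SE 1.07, edgeR adjusted p 6.36e-09). Defb6, a defensin, was at 0 to 1965 TPM, and at 0 in all skin-poor tumours, at least 763-fold higher.

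**Figure D2:**
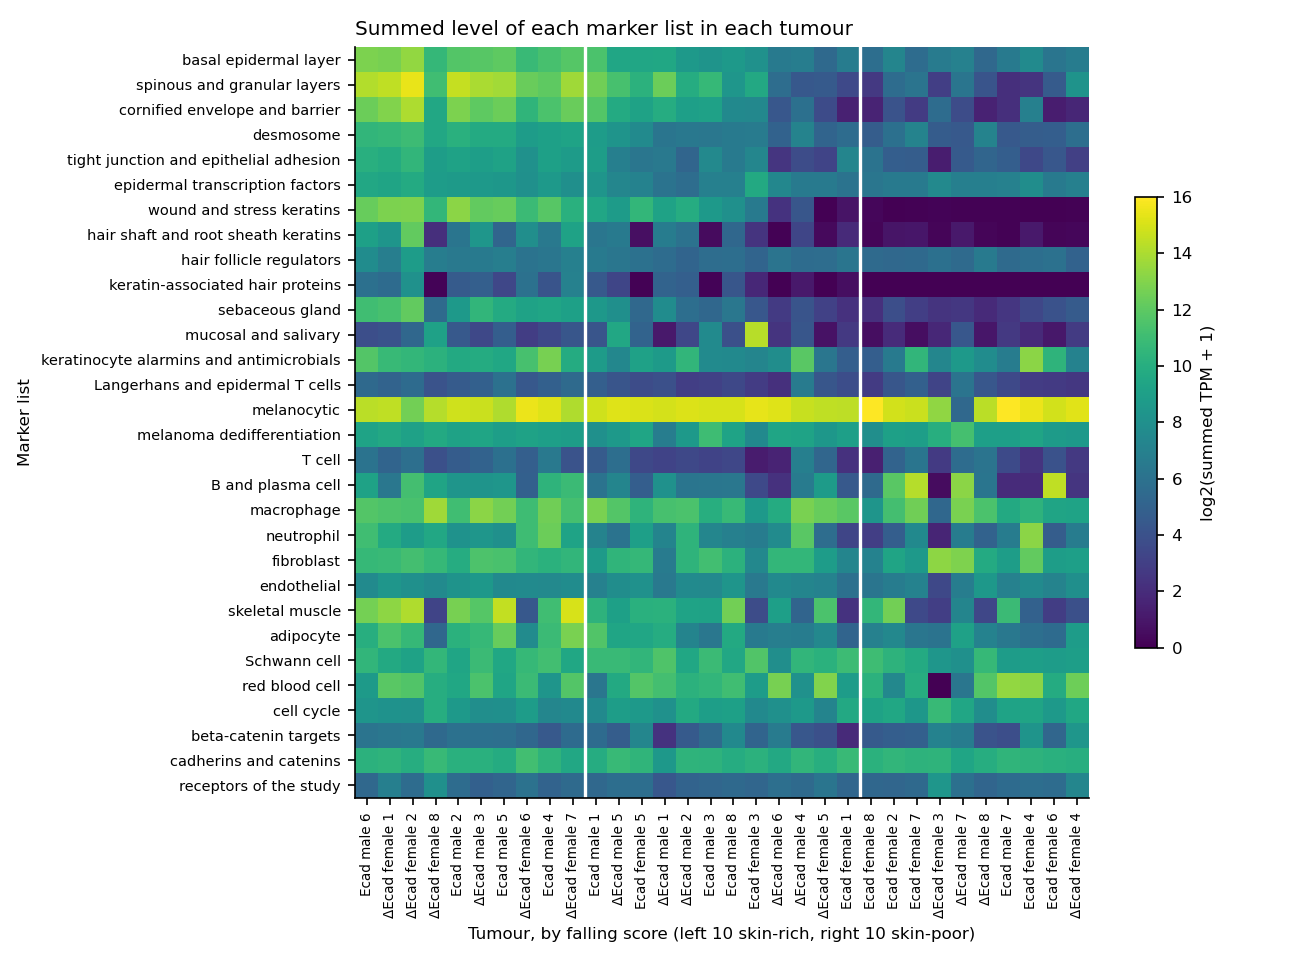
Summed TPM of each marker list (log2 of the sum + 1, colour) in each of the 32 tumours, ordered from the highest to the lowest score with white lines at the class limits. Epidermal, hair and gland lists fade from left to right, while the melanocytic list stays bright in all tumours but ΔEcad male 7, where it sums to 41.7 TPM.

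Cdh1 (ENSMUSG00000000303, chromosome 8), the gene deleted in ΔEcad melanocytes, was itself higher in skin-rich tumours. It was at 45.15, 107.8 and 281.9 TPM in the lowest, median and highest skin-rich tumour and at 0.17, 5.12 and 66.85 TPM in skin-poor tumours (a log2 difference of 3.01, SE 0.74, edgeR adjusted p 0.00904). The classes overlapped in single tumours, and the split by genotype shows where. In ΔEcad tumours, Cdh1 was at 45.15 to 143.2 TPM in the 6 skin-rich, 0.79 to 16.66 TPM in the 6 in between and 0.17 to 4.27 TPM in the 4 skin-poor tumours. In Ecad tumours it was at 98.06 to 281.9 TPM in the 4 skin-rich, 39.58 to 156 TPM in the 6 in between and 2.16 to 66.85 TPM in the 6 skin-poor tumours. Thus every skin-rich ΔEcad tumour had more Cdh1 RNA than 5 of the 6 skin-poor Ecad tumours. Fitted on ΔEcad tumours alone, the difference was 4.76 (SE 0.86, edgeR adjusted p 0.0131), and on Ecad tumours alone 2.98 (SE 0.79, edgeR adjusted p 0.0395). The difference between the genotypes, 1.76 (SE 1.13), was not past the threshold (edgeR adjusted p 0.901). Sex ran with class in these fits. The skin-rich Ecad tumours were 4 males, and the skin-poor ones 5 females and 1 male. Among ΔEcad tumours, 5 of 6 skin-rich and 2 of 4 skin-poor ones were female. Class and sex cannot be told apart in the Ecad fit, and the difference between the genotypes is tied to sex as well.

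**Figure D3:**
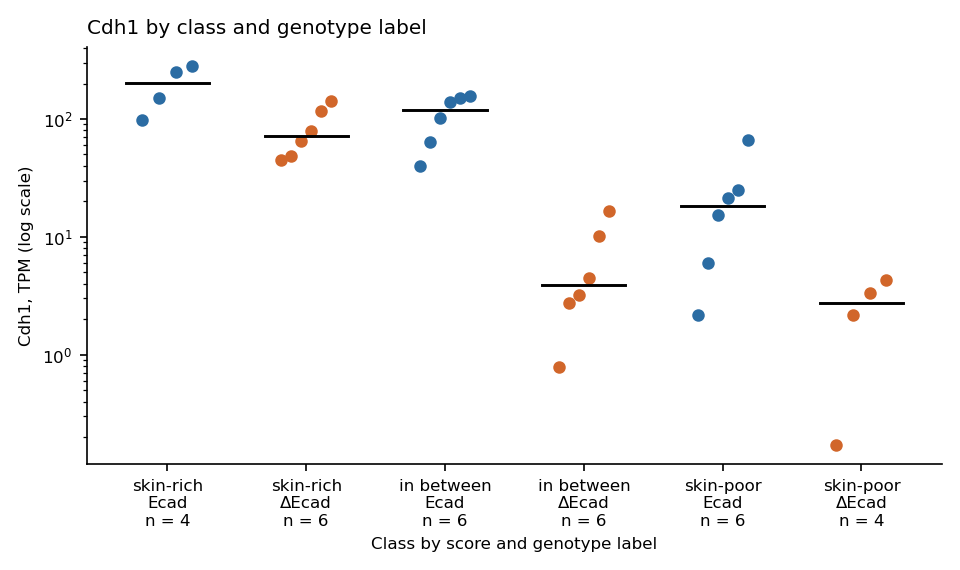
Cdh1 in TPM (log scale) in each tumour, by class and genotype label, with a line at the median and blue for Ecad, orange for ΔEcad. The medians are 201.3, 120.3 and 18.36 TPM for skin-rich, in-between and skin-poor Ecad tumours and 71.78, 3.87 and 2.76 TPM for ΔEcad tumours.

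Other epithelial and neural adhesion genes gave the context for Cdh1. Epcam, an adhesion antigen of epithelial cells, was at 31.71, 60.94 and 252.8 TPM, against at most 4.04 TPM (6.29, SE 0.95, edgeR adjusted p 7.25e-05). Cdh3, the P-cadherin of basal cells, was higher (5.13), while Cdh2, the N-cadherin of mesenchymal and melanoma cells, was lower (-1.42, edgeR adjusted p 0.0288). The catenins Ctnnb1 (-0.34), Ctnna1 (-0.30) and Ctnnd1 (0.12) were not called. Grpr, the bombesin-family receptor studied in these mice, did not pass the filter. It was at 0.06 to 0.17 TPM in skin-rich Ecad tumours, at 0.13 to 206.1 TPM in skin-rich and 0 to 262.9 TPM in skin-poor ΔEcad tumours, so high and low levels occurred in both classes. The hormone receptors Esr1 (0.09) and Gper1 (0.35) and the co-activator Yap1 (-0.28) were not called. Of the 5 beta-catenin targets 1, the feedback inhibitor Nkd1, was lower (-2.89, SE 0.89, edgeR adjusted p 0.034), at 2.01 to 12.08 TPM against 1.32 to 231.5 TPM, and it lost this call on leaving out any of 7 single tumours, among them ΔEcad female 4 (-2.06) and Ecad female 4 (-2.39).

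Markers of tissue beneath the epidermis were also examined. Of 10 tested adipocyte genes 9 were higher (median log2 fold change 4.14). Fabp4, a fatty acid carrier, was at 2.88, 250.1 and 1098 TPM in skin-rich and 2.77, 30.20 and 118.8 TPM in skin-poor tumours (3.23, SE 0.77, edgeR adjusted p 0.0074). Cfd, adipsin, was at 0.36, 1074 and 3933 TPM, against 0, 31.25 and 453.9 TPM (4.13, SE 1.28, edgeR adjusted p 0.0342), and Pparg was not called (-0.12). With the label group as a covariate 1 of the 10 was called, and among ΔEcad tumours alone 0. In the same fits 12 of 15 basal genes were called.

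Skeletal muscle genes ran the same way with more spread. Their summed level was 8.92, 6606 and 33380 TPM in skin-rich and 6.54, 22.30 and 6145 TPM in skin-poor tumours, and 2 of 12, Mylpf (4.04) and Pygm (3.68), were called. Over all genes tested 7.73% were called higher, and 2 calls in a list this short do not set it apart from that share. Acta1, skeletal actin, ranged from 0.05 to 15090 TPM in skin-rich and from 0 to 1880 TPM in skin-poor tumours (3.59, edgeR adjusted p 0.163). Without Ecad female 2, 8 of the 12 were called, and without Ecad male 5, Ecad female 6, ΔEcad female 2 or ΔEcad female 7, 0. Of 10 Schwann cell genes 4 were higher, beside the 7.73% of all genes. Among them were the myelin gene Mbp (3.10), the myelin regulator Egr2 (2.58) and Ncmap (1.71), while S100b, Pmp22 and Cnp were among those not called.

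Blood-derived and stromal lists were short, and over all genes tested 7.73% were called higher and 1.92% lower. Counts of 0 or 1 call in lists of this size do not set them apart from those shares. No T cell gene (0 of 12), neutrophil gene (0 of 8), fibroblast gene (0 of 12) or red blood cell gene (0 of 5) was called in either direction by edgeR. Among 12 macrophage genes Lyz2, lysozyme, was higher (2.23, SE 0.67, edgeR adjusted p 0.0307), and not so without ΔEcad female 8 (1.72, edgeR adjusted p 0.0596), Ecad female 6 or ΔEcad male 3. Cd207, the langerin of Langerhans cells, the dendritic cells of the epidermis, was the 1 called member of its list of 7 (6.10, edgeR adjusted p 0.000237). Tek (1.57) and Vwf (1.48) were higher among 11 endothelial genes. Of 8 B and plasma cell genes only Pou2af1 was lower (-3.35), and the lowest fitted changes among called genes, picked out after their values were seen, were those of the antibody segments Ighg2b (-6.12) and Ighg1 (-6.05), of a multigene family and so uncertain. The fibroblast collagens Col1a1 (-0.38) and Col3a1 (-0.67) spanned 33.07 to 4361 and 22.06 to 2817 TPM in skin-poor tumours, wider than the 262 to 1213 and 177.3 to 593.3 TPM of skin-rich ones. The highest skin-poor value of each collagen was that of ΔEcad female 3, a library that stood apart.

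Melanocytic genes were abundant in both classes. Of 16, 0 were called by edgeR and 2 as lower by DESeq2, with a median log2 fold change of -1.11. Dct, a pigment enzyme, was at 1466, 9685 and 22380 TPM in skin-rich and 4.98, 11710 and 50660 TPM in skin-poor tumours (-0.67, edgeR adjusted p 0.57). Pmel, the fibre protein of melanosomes, was at 40.87, 1470 and 5678 TPM, against 4.98, 3837 and 16560 TPM (-1.53, edgeR adjusted p 0.239), and overlaps 2 genes, so it is uncertain. The list made up 0.613% to 4.73% of TPM in skin-rich and 0.00417% to 7.72% in skin-poor tumours, the lowest in ΔEcad male 7, and without that library 4 of the 16 genes were lower. None of 14 genes of dedifferentiated melanoma was called by edgeR.

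Of 12 cell cycle genes 7 were lower in skin-rich tumours, 0 were higher and 5 were not called (median log2 fold change -1.19), beside 1.92% of all genes tested called lower. The summed level was 162.9, 278.6 and 1020 TPM in skin-rich and 224.9, 629.7 and 1790 TPM in skin-poor tumours, the highest in ΔEcad female 3. Mcm5, of the replicative helicase, was at 13.22, 21.02 and 102.4 TPM, against 19.76, 58.61 and 160.9 TPM (-1.28, SE 0.36, edgeR adjusted p 0.0211). Cdk1, the mitotic kinase, was at 6.22, 18.55 and 57.42 TPM, against 15.10, 40.65 and 149.6 TPM (-1.24, SE 0.34, edgeR adjusted p 0.0177). The classes overlapped for each of these genes. Mki67 (-0.60) and Pcna (-0.65) were not called, the second because its fold change was under the limit. The number of lower genes was 10 without ΔEcad female 8 and 2 without ΔEcad female 3, 2 with total counts alone as the scale, 8 with the label group as a covariate, and 2 and 0 among Ecad and ΔEcad tumours alone.

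Of the genes lower in skin-rich tumours, the 12 with the smallest p had log2 fold changes from -1.06 to -2.75. Ergic1, of the compartment between the endoplasmic reticulum and the Golgi, was at 20.30, 35.56 and 46.73 TPM in skin-rich and 47.94, 69.12 and 120.9 TPM in skin-poor tumours (-1.17, SE 0.18, edgeR adjusted p 7.23e-05). It overlaps Dusp1 and is uncertain. E2f1, a transcription factor that drives entry into S phase, was at 10.40, 19.39 and 37.27 TPM, against 19.37, 44.45 and 91.86 TPM (-1.33, SE 0.20, edgeR adjusted p 8.86e-05). Hmga1, a chromatin protein abundant in dividing and embryonic cells, was at 51.37, 121.6 and 299.4 TPM, against 212.9, 448.8 and 948.7 TPM (-1.84, SE 0.30), and overlaps other genes. Gfra1, a GDNF co-receptor that overlaps Gm16277, was at 4.24, 17.20 and 52.75 TPM, against 20.16, 102.7 and 299.4 TPM (-2.75, SE 0.50, edgeR adjusted p 0.000642).

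The other genes of this set were M1ap (-2.27), Maged1 (-1.23), Fez1 (-1.81), Cxxc5 (-1.98), Kctd12 (-1.23), Ddah1 (-2.25), Dcakd (-1.22) and Ddb1 (-1.06), and their classes overlapped. Fitted on ΔEcad tumours alone, E2f1 (-1.22, edgeR adjusted p 0.079) and Hmga1 (-1.66, edgeR adjusted p 0.106) were not called, with 10 tumours in that fit. Of the 311 genes, 304 lay below in both genotypes' own fits, and of the 1253 genes called higher 1241 lay above in both. Each of those fits used a part of the same tumours on which the genes had been called. Most called genes were thus bound to keep their sign, so these counts are a description and no test of agreement between the genotypes. The interaction of class and genotype called 0 genes with edgeR, with 1045 at an unadjusted p under 0.05. Sex ran with class within the genotypes, so these fits carry it too.

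The 12 tumours in between were in neither class, but they were ranked on the same score, so genes made by the cells that make Krt5, Krt14 and Dsg3 had to rise there too, and their slopes are a description. The slope of each gene on the score was fitted over 17575 genes, and 305 rose with the score (1.74%) and 12 fell (0.0683%). Of the 1253 genes higher in skin-rich tumours 1215 were tested, 1089 (89.6%) had a slope above 0, and 237 were called as rising, with 0 called as falling. Of the 311 lower genes 207 (66.6%) had a slope below 0, and 1, Trib2, a pseudokinase, was called as falling. Over all genes 50.2% of slopes were above 0.

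Among the lists, all 10 spinous and granular genes rose with the score, as did 12 of 15 cornified envelope genes, 10 of 15 basal genes, 7 of 12 desmosome genes, 7 of 15 transcription factors and all 4 wound keratins. Krt1 rose by 1.65 on the log2 scale per unit of score (edgeR adjusted p 0.0143), Krt16 by 1.79 (edgeR adjusted p 0.0214) and Lor by 1.53 (edgeR adjusted p 0.00625). Cnfn rose by 1.51 and Pkp1 by 1.30. No adipocyte, skeletal muscle, macrophage, melanocytic or cell cycle gene was called in either direction in these 12 tumours by edgeR. Over all genes 1.74% rose and 0.0683% fell, so 0 calls in lists this short is near that share. Of the cell cycle slopes 7 of 12 were above 0, while 10 of 10 adipocyte slopes were. So were 12 of 12 fibroblast, 11 of 11 endothelial, 5 of 5 beta-catenin target and 10 of 12 skeletal muscle slopes. Of the T cell slopes 0 of 12 were above 0, and of the red blood cell slopes 0 of 5. Members of a list can move together, so these counts are a description. Cdh1 had a slope of 0.04 (edgeR adjusted p 0.973), beside 0.98 for Epcam (edgeR adjusted p 0.0218).

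With the sex and genotype labels as covariates, 115 genes rose and 0 fell (edgeR), and Cdh1 had a slope of 0.18. Krt10 (1.47, edgeR adjusted p 0.0507) and Epcam (1.21, edgeR adjusted p 0.0859) were no longer called in that fit. The number that rose was 123 without Ecad male 1, the tumour with the highest score of the 12, 134 without Ecad female 1, the one with the lowest, and 189 without ΔEcad female 5. Without ΔEcad male 2, whose sex-linked genes went against its label, 279 rose and 8 fell.

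**Figure D4:**
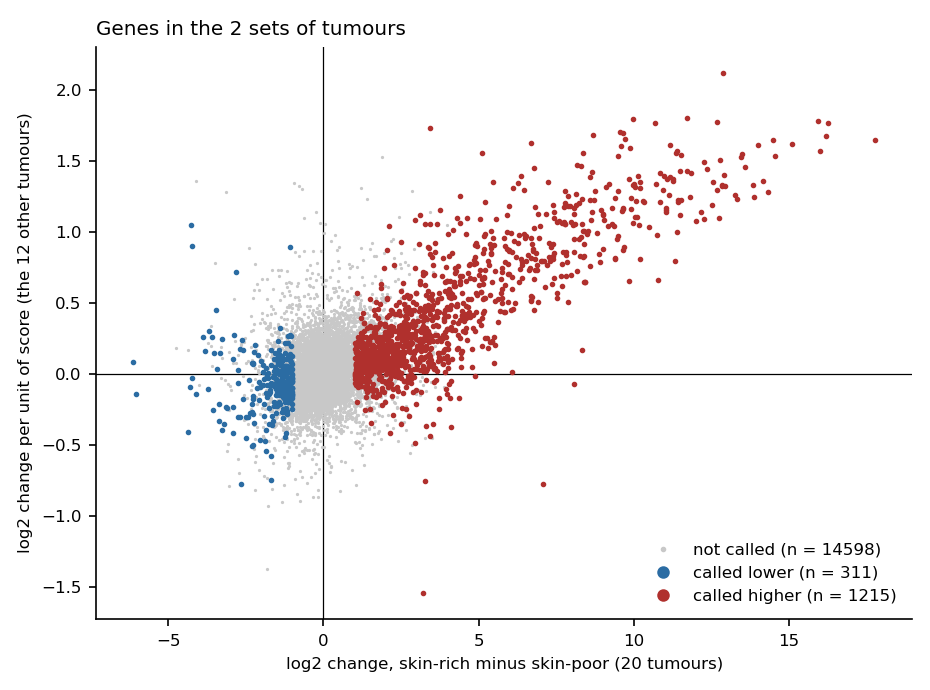
Log2 fold change between the classes (x axis, 20 tumours) against the log2 slope per unit of score in the 12 other tumours (y axis), 1 point a gene, with genes called higher in red, lower in blue and not called in grey. Of the red points, 89.6% lie above 0 on the y axis, while the blue points lie on both sides of 0.

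ΔEcad female 8 was skin-rich by the score but differed from the other 9 in which epithelial genes it held. Its Krt5 (1808 TPM) and Krt14 (3444 TPM) lay within the others, and its Dsg3, at 86.03 TPM, lay above their 4.44 to 50.66 TPM. Lor was at 1.16 TPM, against 211.7 to 5945 TPM in the others, and Krt1 at 75.91, against 150.3 to 7057 TPM. The kallikreins Klk5 and Klk7, which shed cornified cells, Lce1a1, a late envelope gene, the hair keratins Krt25 and Krt71 and the defensin Defb6 were all at 0. In all, 20 of 26 cornified envelope genes, 17 of 20 hair keratins, 11 of 14 sebaceous genes, 10 of 12 skeletal muscle genes and 8 of 10 adipocyte genes lay below all 9 others.

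Krt13 and Krt4, keratins of wet, non-cornified epithelia, were high in that tumour instead. Of the 15 genes of the mucosal and salivary list, 6 lay above the other 9 and 1, Bpifa2, lay below them. Over all genes tested 33.41% lay above, and Krt76, Smr2, Smr3a and Prol1, among the 6, reached at most 2.19 TPM. The summed list was not highest in this tumour, at 572.6 TPM. It was at 20320 TPM in Ecad female 3, with Bpifa2 at 8313 TPM, and at 772.4 TPM in ΔEcad male 5, both of the tumours in between. Krt13 was at 494.2 TPM, against at most 0.14 TPM in the other 9, and its partner Krt4 at 70.29 TPM, against at most 2.48 TPM. Sprr3, an envelope protein of the oesophagus and mouth, was at 38.29 TPM, against at most 0.19 TPM, and Dsc2, the desmocollin of such epithelia, at 86.94 TPM, against at most 3.59 TPM. Ltf, the lactoferrin of secretions and neutrophils, was at 986.4 TPM, against at most 6.54 TPM, and the airway-type protease Tmprss11d at 89.01 TPM, against at most 1.65 TPM. Of 12 cell cycle genes 11 lay above the others, with Mki67 at 109.2 TPM, against 4.93 to 36.36 TPM. Tyrp1, a pigment enzyme, was at 12.38 TPM, against 306.1 to 6536 TPM, with 9 of 16 melanocytic genes below the others. Over all genes tested, 33.41% lay above and 11.14% below the other 9, against 2.84% to 18.53% above and 0.851% to 27.7% below for each of the other skin-rich tumours against its own 9.

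The genes named for this tumour were picked out after their values were seen, and Ltf and Tmprss11d are in none of the lists. ΔEcad female 8 was 1 tumour with no replicate. Without it 1469 genes were higher and 576 lower, and 1221 of the 1253 and 306 of the 311 genes kept their call.

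**Figure D5:**
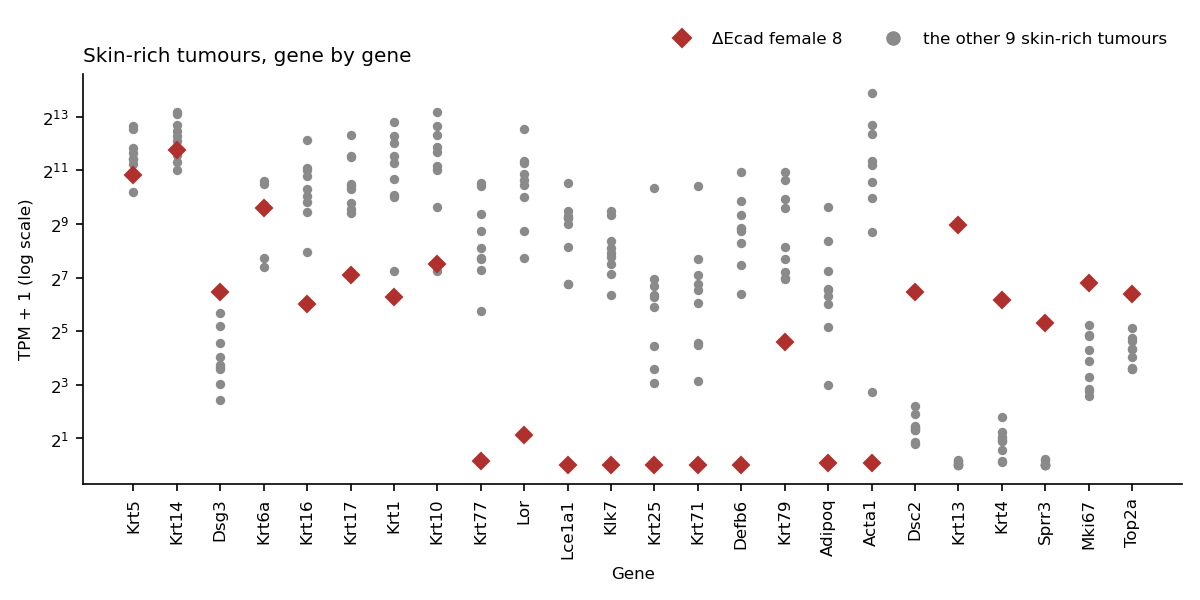
Levels (TPM + 1, log scale) of 24 genes in ΔEcad female 8 (red diamonds) and in the other 9 skin-rich tumours (grey points), ordered from the score genes through layers, hair and deeper tissue to mucosal and cell cycle genes. The diamonds fall to 0 TPM for Lce1a1, Klk7, Krt25, Krt71 and Defb6 and lie above every grey point for Dsc2, Krt13, Krt4 and Sprr3.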

How the data were processed

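RNA of 32 primary melanomas was sequenced as polyadenylated, stranded, paired-end libraries. Mapping used STAR, and gene annotation and build were GENCODE M13 and mm10, per the study's methods. The authors deposited raw counts and TPM for 50600 genes. Whether the counting used strand, or a batch correction touched these tables, is not given in the sources used here. Replicates were separate samples by their labels, so where nothing else says they came from separate mice, p-values measure the spread between these samples. The members, marker lists and tests were chosen with earlier results of these data known.

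Tumours were ranked on the deposited TPM (pseudocount 1). The deposited counts, 24036333 to 63923086 per tumour, were filtered by expression, scaled by TMM and tested with edgeR 4.0.16 (quasi-likelihood, robust, R 4.3.3) between the 10 highest and 10 lowest tumours, with Benjamini-Hochberg adjustment at 0.05 and a log2 fold change beyond 1. The slope on the score was tested likewise in the other 12 tumours. DESeq2 1.42.0 and limma 3.58.1 were alternatives. Named genes were Krt5, Krt14, Dsg3, Cdh1 and Grpr, the top 12 calls by p on either side, and the 4 members of each list with the highest mean TPM over all tumours. Other list members and genes in the text, such as Trp63, Ovol1, Foxn1, Cd207, Cdh2, Pparg, Krt13 and Trib2, were picked out after their values were seen. On simulated counts for the class comparison (16096 genes), edgeR called 1.49% of genes set to change by a log2 of 1, 69.7% at 2, 100% at 4 and 0.0315% of unchanged genes. The simulation gave every gene the same spread, so these rates need not hold for real genes with less or more spread. Some list members are not reported here.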

Additional observations from a re-analysis of the deposited data

Results flagged for a closer look

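Over 66 quantities (the summed level of each list, Cdh1, Grpr and the total count, in each class of 10 tumours), 7 had a highest or lowest tumour that stood apart, on the scale of log2(TPM + 1), by Dixon's test at its 95% limit, which chance passes in about 1 of 20. In the skin-rich class ΔEcad female 8 had 45.18 TPM over the sebaceous gland list, against 396.7 to 4649 TPM in the others, and 572.6 TPM over the mucosal and salivary list, against 6.64 to 40.02 TPM. ΔEcad female 2 had 6134 TPM over the melanocytic list, against 17620 to 47260 TPM.

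In the skin-poor class ΔEcad male 7 had 41.7 TPM over the melanocytic list, against 10280 to 77170 TPM, and 668.1 TPM over the cadherins and catenins, against 1017 to 1480 TPM. Ecad female 4 had 9392 TPM over the neutrophil list, against 2.18 to 189.5 TPM in the others. ΔEcad female 3 had 10.01 TPM over the endothelial list, against 73.93 to 370.4 TPM.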

How the results depend on the processing

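Against 1253 higher and 311 lower genes, higher counts were 2279 with no filter on low counts, 2859 with limma voom, 665 with glmTreat, 1948 with a basal-list score and 582 in ΔEcad tumours alone. Lower counts were 136 with total counts alone, 513 with no filter, 483 with limma voom, 1003 with adjusted p alone, 17 with glmTreat, 190 with 8 against 8, 488 with the basal-list score, 1078 with the score as a number and 32 in ΔEcad tumours alone. Leaving out 1 tumour gave 1013 to 1726 higher and 171 to 576 lower genes, the ends being without ΔEcad female 2 and ΔEcad male 7, and without Ecad male 6 and ΔEcad female 8. Lower counts were also 183 without Ecad male 5 and 177 without ΔEcad female 2. Smaller moves are left out above, such as 1797 higher and 466 lower genes with DESeq2. With the label group as a covariate 873 were higher and 281 lower. In the 12 other tumours, against 305 rising and 12 falling, DESeq2 gave 638 and 62, the sex and genotype covariates 115 and 0, and no filter 63 falling. Leaving out 1 tumour gave 123 to 328 rising and 4 to 18 falling. These directions turned: Sp5 to 2.04 with DESeq2, Slpi to 0.22 with limma voom, 2.02 with the label group and 1.92 in ΔEcad tumours alone, and Thy1 to 1.27 with limma voom. The cause was not tested. With the replicate number as a replicate block, 797 genes were higher and 73 lower. Same-numbered tumours of different groups correlated from -0.53 to 0.51 (median -0.027, 14 of 48 pairs over 0.1), and 1 of 32 tumours matched its own number best. These matches showed no pairing of the samples by number, but they cannot exclude a weaker tie between same-numbered tumours. In simulated counts with the same spread for every gene, 1.49% of genes set to change by a log2 of 1, the limit of a call, were recovered. What depth adds to this was not tested.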
